A study of Mus musculus with 16 samples.

Results

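The interferon-inducible GTPases are proteins that host cells make in quantity after exposure to interferon and that act inside the cell against vacuole-dwelling pathogens. The genes described are Iigp1, Irgm1, Irgm2, Igtp and Ifi47 of the immunity-related GTPases, and Gbp2 and Gbp3 of the guanylate-binding proteins. They were chosen by name, with earlier results of these data known, and every probe set annotated to 1 of them alone was taken. This gave 7 of 18193 measured genes and 9 of 45037 probe sets, and no probe set shared by several genes included any of them. All 9 probe sets lay above the array median on all 16 arrays, so that none passed the filter on dim genes through 1 group only.

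Expression had been measured with Affymetrix Mouse 430 2.0 arrays in cultured mouse spermatogonial stem cells, which maintain sperm production in the testis. The cultures came from germ cells enriched for the surface protein Thy1, on the C57BL\6 background, and all groups were grown in a serum-free medium with GDNF (20 ng/ml), GFRα1 (150 ng/ml) and FGF2 (1 ng/ml). Each group had 4 arrays after 30 h with short interfering RNA (siRNA): a negative control siRNA, or siRNA against Etv5, Bcl6b or Pou3f1, which encode transcription factors. The knockdown is transient and reached only part of the target RNA: Pou3f1 fell from 661 ± 21.8 (SD, n = 4) to 415 ± 71.7, Bcl6b from 1453 ± 83.1 to 721 ± 79.4 in its own knockdown, and Etv5 from 2969 ± 84.0 to 1099 ± 385. The Etv5 siRNA also lowered Bcl6b, to 686 ± 142 (adjusted p = 6.21e-05). Whether replicates were separate cultures is not stated in the labels, and the spread behind each p-value may therefore be technical.

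Array medians were 15.6 to 17.1, and the number of arrays limits the precision. Bcl6b knockdown replicate 1 stood apart. Its 3′ minus 5′ signal on the log2 scale was 3.08 for Actb against 0.62 to 0.76 on the other 15 arrays, and 1.03 for Gapdh against -0.53 to -0.45. It correlated with the others at 0.975 on average, where the rest had averages of 0.996 to 0.997. Results are therefore given over all 16 arrays and over the 15 arrays without it. The share of tested genes called rose without it in every comparison with control, for example from 2.25% to 11.4% in Pou3f1 knockdown, so that counts from the 2 fits have different backgrounds.

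As background, transcription of these genes is switched on by both kinds of interferon. Type I interferon acts largely through interferon-stimulated response elements in their promoters, and interferon-gamma through gamma-activated sites. Irgm1, Irgm2 and Igtp are regulators that sit on the cell's own membranes and keep the effector GTPases from loading there. Iigp1 and Ifi47 are effectors that gather on pathogen vacuoles, and the guanylate-binding proteins Gbp2 and Gbp3 are larger GTPases recruited to the same vacuoles.

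Promoter sequence is shown because the response element can be read directly in it, close to the start, in 5 of the genes, and a gamma-activated site in 2 of these. Windows from 250 bases before to 50 after the annotated start were taken from RefSeq (GRCm38.p6), which gave 7 windows for 6 of the genes, since Gbp3 has 2 starts among these windows. Only bases before the gene's annotated transcripts are printed, 5′ to 3′ on the gene's strand, with matches to GAAA, any 2 bases and GAAA again (interferon-stimulated response element, both strands) or to TTCNNNGAA (gamma-activated site, the same on both strands) in capitals.
Irgm1 (chr11:48871421-48871510, minus strand): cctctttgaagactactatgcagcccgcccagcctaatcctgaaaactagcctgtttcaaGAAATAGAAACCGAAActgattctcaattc
Irgm2 (chr11:58214887-58214976, plus strand): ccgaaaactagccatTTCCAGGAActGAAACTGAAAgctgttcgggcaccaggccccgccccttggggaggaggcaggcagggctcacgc
Igtp (chr11:58199466-58199555, plus strand): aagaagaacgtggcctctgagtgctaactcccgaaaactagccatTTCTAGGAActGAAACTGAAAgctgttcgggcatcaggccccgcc
Ifi47 (chr11:49076497-49076586, plus strand): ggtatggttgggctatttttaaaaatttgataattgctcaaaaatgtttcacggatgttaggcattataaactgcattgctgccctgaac
Gbp2 (chr3:142620573-142620662, plus strand): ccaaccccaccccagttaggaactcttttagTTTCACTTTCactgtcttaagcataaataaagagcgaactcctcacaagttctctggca
Gbp3 (chr3:142559954-142560015, plus strand): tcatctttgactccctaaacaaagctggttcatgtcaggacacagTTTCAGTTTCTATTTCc

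The response element was in 5 of the 7 windows, against 3.44% of all 32851 RefSeq windows of this length. In Irgm1 a pair of overlapping matches ran from 30 to 15 bases before the start. In Gbp3 a pair on the opposite strand ran from 45 to 30 bases before the start of its first window, at 142560044. The gene table begins Gbp3 earlier, at 142560016, and the pair ends at 142560014, just before that base. Gbp2 had 1 match on the opposite strand, from 59 to 50 bases before the start. Igtp and Irgm2, close together on chromosome 11, each had a gamma-activated site (8.30% of all windows) just before a response element. Windows that held both motifs, in any order and at any distance, were 0.454% of all. Their windows shared an exact run of 61 bases, while no other pair of the first windows of these genes shared a run of more than 11. Neither motif was in the Ifi47 window or in that of the second Gbp3 start, which says only that these letters are not within those 300 bases. A match is a description of sequence and shows neither binding nor control.

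**Figure D1:**
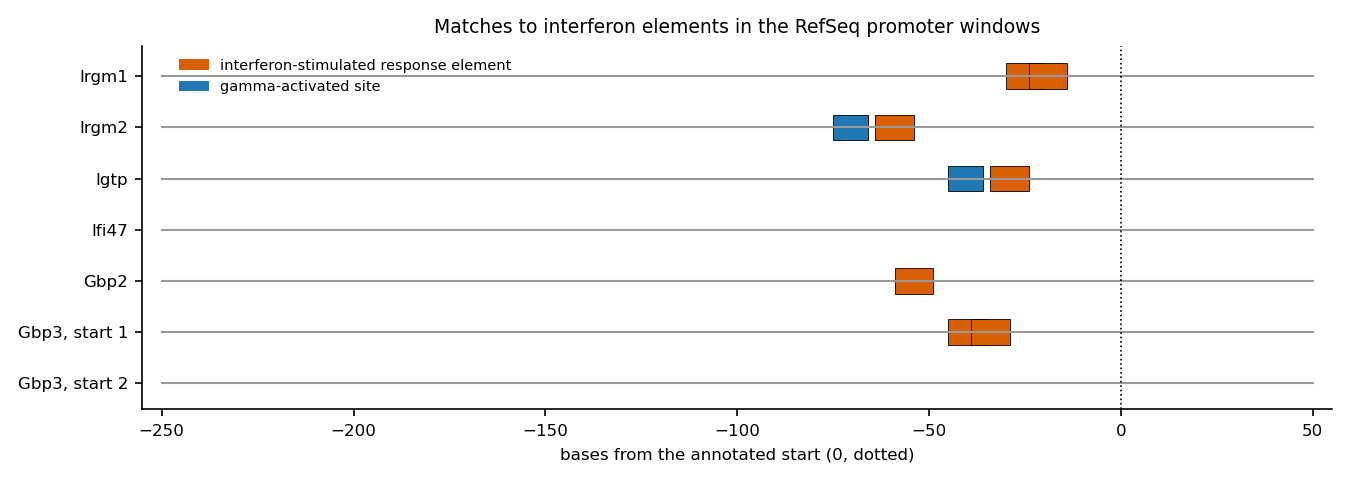
Positions of the interferon-stimulated response elements (orange) and gamma-activated sites (blue) in the 7 RefSeq promoter windows, in bases from the annotated start. The 7 response elements and 2 gamma-activated sites all lie within 75 bases before the start, and Ifi47 and the second Gbp3 start have none.

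All 7 genes were lower after Pou3f1 knockdown than with control siRNA, by 0.47 to 0.83 on the log2 scale, which is a reduction of 27.9% to 43.8%. In each gene all 4 Pou3f1 knockdown arrays lay below all 4 control arrays. All 7 were called lower over 16 and over 15 arrays. The array left out is in neither group, so the differences and the overlap could not change with it. Of all 11145 tested genes, 1.22% were called lower in this comparison over 16 arrays and 7.08% over 15, and 11.7% lay wholly below control. Since the 7 genes were chosen with earlier results of these data known, setting them beside these shares is no independent test. In bulk RNA, fewer cells of a type that expresses these genes and less of their RNA per cell cannot be told apart. All 16 arrays had siRNA, and none came from cells without it. Loss of a target and unlike effects of the siRNAs themselves, the control siRNA included, therefore cannot be told apart in any knockdown.

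Among the regulators, Irgm1 (1418825_at) is on chromosome 11 at 48865245 to 48871420 (GRCm38.p6) and read 2088, 2058, 2120 and 1969 in control replicates 1 to 4 and 1601, 1385, 1349 and 1616 in Pou3f1 knockdown. With Etv5 siRNA it read 2092, 2227, 2025 and 2122, and with Bcl6b siRNA 1492, 2351, 2046 and 2106. The Pou3f1 knockdown arrays were the lowest group, and the only other array in their range was Bcl6b knockdown replicate 1. Irgm1 fell by 0.47 (SE 0.11, adjusted p = 0.0273) against control. Over 15 arrays the SE was 0.06 and the adjusted p 3.29e-05. With all Bcl6b knockdown arrays kept, this call was lost when any 1 of the 4 control replicates, or Pou3f1 knockdown replicate 2 or 3, was left out (adjusted p between 0.0534 and 0.0985).

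Irgm2 (1417793_at, chr11:58214977-58222783) read 3096, 3650, 3292 and 2935 in control replicates 1 to 4 and 2222, 2038, 1937 and 2058 in Pou3f1 knockdown. Its values were 3255, 3646, 3132 and 3651 in Etv5 knockdown and 3413, 4583, 3935 and 3522 in Bcl6b knockdown. The highest array of all was Bcl6b knockdown replicate 2, and every array of the other 3 groups exceeded every Pou3f1 knockdown array. The fall against control was 0.65 on the log2 scale (SE 0.09, adjusted p = 0.000876).

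Igtp (1417141_at, chr11:58199556-58207592), upstream of Irgm2, read 1522, 1888, 1641 and 1358 with control siRNA. In Pou3f1 knockdown it read 1098, 915, 837 and 961, in Etv5 knockdown 1667, 1910, 1533 and 1998, and in Bcl6b knockdown 2026, 2293, 2153 and 1817. Pou3f1 knockdown was again wholly below the other groups, while 3 of the 4 Bcl6b knockdown arrays were above the highest control array. Igtp fell by 0.75 (SE 0.11, adjusted p = 0.00169) in Pou3f1 knockdown.

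Of the effectors, Iigp1 showed the largest fall. Its brighter probe set (1419043_a_at) read 3295, 4101, 3424 and 3234 in control and 2214, 1847, 1894 and 1920 in Pou3f1 knockdown, with 3250, 3899, 3290 and 3914 in Etv5 knockdown and 4046, 4015, 3797 and 3359 in Bcl6b knockdown. Only the Pou3f1 knockdown arrays stood apart, and the other groups overlapped. The difference from control was -0.83 (SE 0.09, adjusted p = 0.000123). The other probe set (1419042_at) read 2033, 2157, 2141 and 1664 in control and 1164, 1130, 1083 and 1061 in Pou3f1 knockdown, a difference of -0.84 in the fit over all probe sets. It read 1775, 2150, 1739 and 2124 in Etv5 knockdown and 2076, 2310, 1954 and 1781 in Bcl6b knockdown, overlapping control like the brighter probe set. The gene lies on chromosome 18, and its promoter is not shown.

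Ifi47 (1417292_at, chr11:49076587-49096987) read 1727, 2012, 1809 and 1657 with control siRNA and 1379, 1081, 1169 and 1140 with Pou3f1 siRNA. It read 1893, 2049, 1836 and 2114 in Etv5 knockdown and 2069, 2248, 2276 and 2024 in Bcl6b knockdown. Every Pou3f1 knockdown array was below control, and every Bcl6b knockdown array was above it. Etv5 knockdown arrays overlapped those of both control and Bcl6b knockdown. Ifi47 fell by 0.60 (SE 0.08, adjusted p = 0.000588) in Pou3f1 knockdown.

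For the guanylate-binding proteins, Gbp2 (chr3:142620663-142638008) has 2 probe sets. The brighter (1435906_x_at, whose suffix marks probes that may also match other transcripts) read 6276, 7041, 6614 and 6009 in control, 5046, 4466, 4100 and 4721 in Pou3f1 knockdown, 6313, 6864, 5817 and 7010 in Etv5 knockdown, and 5639, 6335, 6679 and 5970 in Bcl6b knockdown. Gbp2 fell by 0.50 (SE 0.08, adjusted p = 0.00175) in Pou3f1 knockdown, with no overlap with any other group. The second (1418240_at) read 4010, 4182, 4119 and 3602 in control and 2795, 2572, 2429 and 2413 in Pou3f1 knockdown, a difference of -0.64. It read 3768, 3990, 3705 and 4067 in Etv5 knockdown and 2708, 3733, 3894 and 3558 in Bcl6b knockdown, and the 2708 of replicate 1 lay within the Pou3f1 knockdown range.

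Gbp3 (1418392_a_at, chr3:142560016-142573213), on chromosome 3 like Gbp2, read 3436, 4067, 3527 and 3135 in control and 2680, 2229, 1980 and 2654 in Pou3f1 knockdown. It read 3986, 4310, 3438 and 4537 in Etv5 knockdown and 4617, 4750, 4452 and 4310 in Bcl6b knockdown. As for Ifi47, all Pou3f1 knockdown arrays were below control and all Bcl6b knockdown arrays above it. Gbp3 fell by 0.57 (SE 0.10, adjusted p = 0.00716) in Pou3f1 knockdown.

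**Figure D2:**
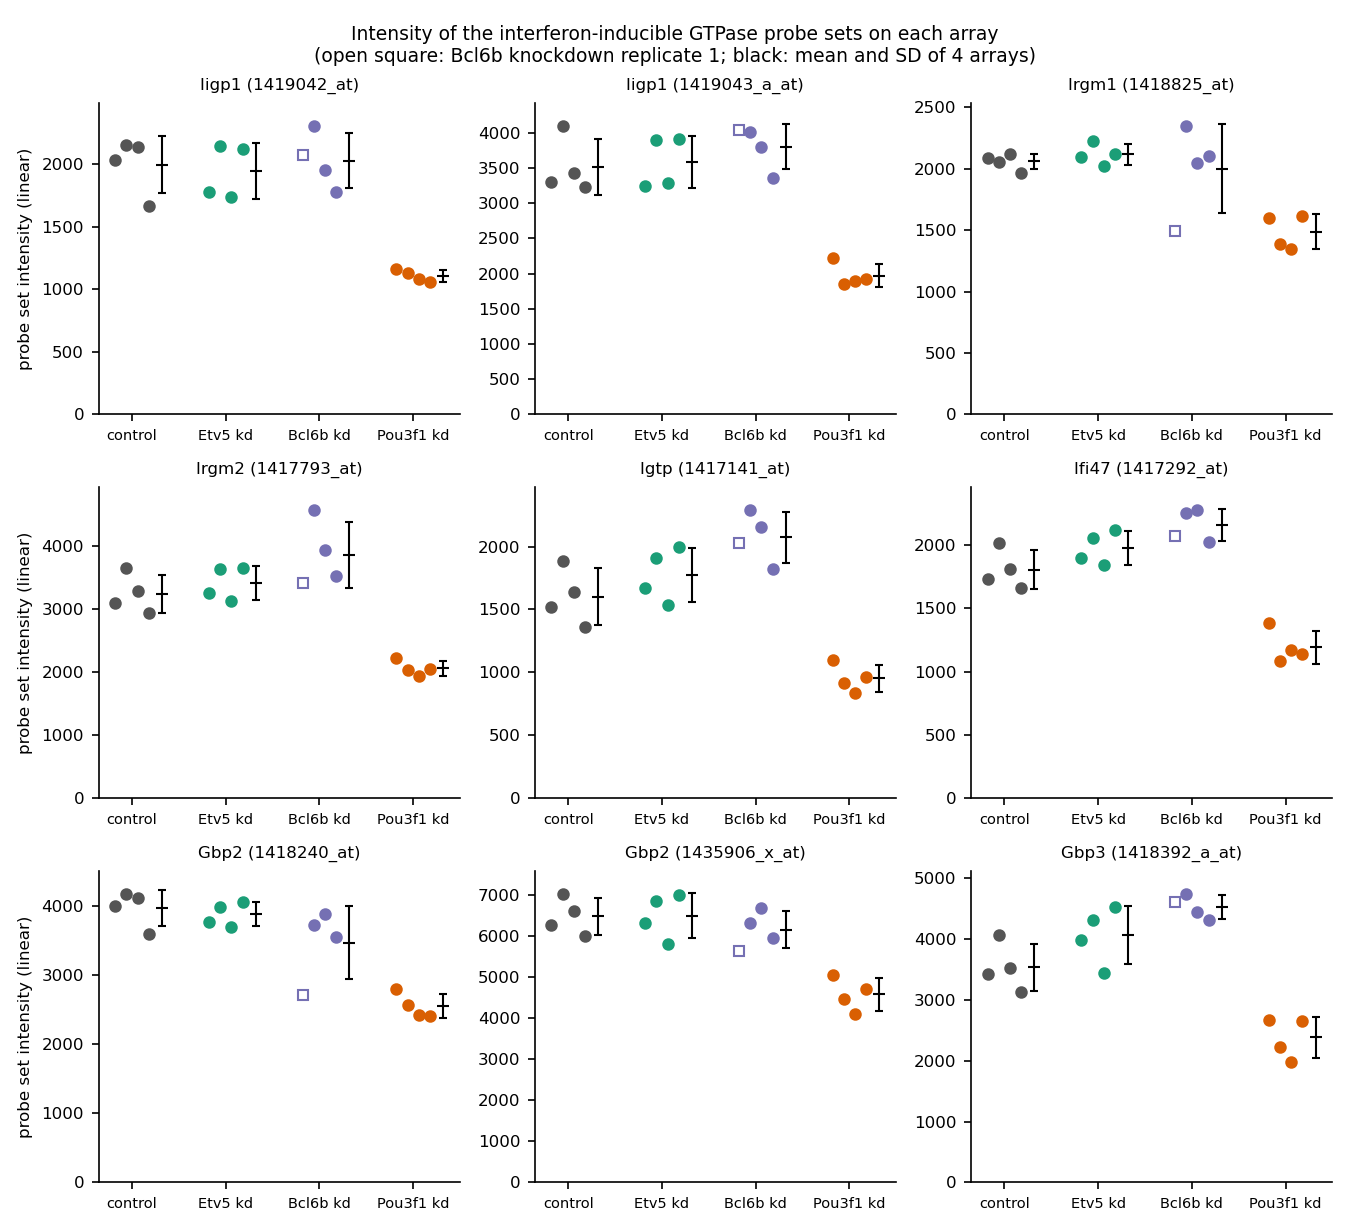
Intensity (linear scale) of the 9 probe sets on each of the 16 arrays, in order of replicate number within a group, with the mean and SD of the 4 arrays in black and Bcl6b knockdown replicate 1 as an open square. Pou3f1 knockdown arrays are below all control arrays in every panel, and the open square is below the rest of its group for Irgm1, Irgm2 and both Gbp2 probe sets.

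At the level of single probe sets, 9 of 9 were called lower in Pou3f1 knockdown against control in both fits, where 1.36% of 22836 probe sets were called in either direction over 16 arrays and 8.82% over 15. The probe set of Irgm1 was closest to the threshold, with an adjusted p of 0.0460 over 16 arrays. Without the filter on dim probe sets it was not called (adjusted p = 0.0889), which left 8 of 9.

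Against Etv5 knockdown, Pou3f1 knockdown was lower in 7 of 7 genes, by 0.50 (Gbp2) to 0.90 (Igtp), where 0.933% of genes were called lower over 16 arrays and 3.75% over 15. All 7 lay wholly below Etv5 knockdown, as did 5.71% of all genes. Against Bcl6b knockdown, 6 of 7 were called lower over 16 arrays and 7 of 7 over 15, where 1.44% and 2.88% of genes were called lower. The groups did not overlap in 6 genes over 16 arrays and in 7 over 15, where 4.8% and 6.84% of all genes lay wholly below Bcl6b knockdown. The exception over 16 arrays was Irgm1 (-0.41, adjusted p = 0.0577), which became -0.54 (adjusted p = 1.84e-05) without Bcl6b knockdown replicate 1. The largest of these differences was that of Igtp, -1.12 over 16 arrays and -1.13 over 15, a reduction of 54.1% and 54.3%. These comparisons use the same Pou3f1 knockdown arrays as the comparison with control.

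After Bcl6b knockdown, 0 of 7 genes were called over 16 arrays, where 3.21% of all genes were. Unadjusted p was under 0.05 for 4 of the 7. The share of all genes under that unadjusted threshold was not computed, so this count has no background. The 4 were Igtp (0.38, adjusted p = 0.0857), Gbp3 (0.36, adjusted p = 0.0751), Ifi47 (0.26, adjusted p = 0.0910) and Irgm2 (0.25, adjusted p = 0.152), all with higher values than control. Without replicate 1 the same 4 genes were called higher, where 4.07% of all genes were called higher and 10.9% either way: Igtp by 0.39 (SE 0.11, adjusted p = 0.0345), Gbp3 by 0.35 (SE 0.10, adjusted p = 0.0369), Irgm2 by 0.30 (SE 0.08, adjusted p = 0.0246) and Ifi47 by 0.28 (SE 0.08, adjusted p = 0.0280). Of these, Ifi47 and Gbp3 lay wholly above control, with and without replicate 1, where 5.25% and 8.14% of all genes did.

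The other 3 genes were not called in Bcl6b knockdown in either fit. Iigp1 differed from control by 0.12 over 16 arrays and 0.09 over 15 (95% interval -0.10 to 0.27), and Gbp2 by -0.08 and -0.03 (-0.18 to 0.12). Irgm1 changed sign, from -0.06 over 16 arrays to 0.07 over 15 (-0.06 to 0.20). Whether these 3 responded differently from the 4 that were called was not tested.

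Bcl6b knockdown replicate 1 was below the other 3 arrays of its group in 4 of the 9 probe sets, within their range in 4 and above it in 1. Minus the mean of the other 3, its log2 value was -0.54 for Irgm1, while for 1418240_at of Gbp2 the difference was -0.46, for Irgm2 -0.23 and for 1435906_x_at of Gbp2 -0.16. For Gbp3, Igtp and Ifi47 it was 0.04, -0.04 and -0.07. The part of the raised 3′ to 5′ signal of this array in these values was not tested.

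After Etv5 knockdown, 0 of 7 genes were called in either fit, where 2.09% of all genes were called over 16 arrays and 9.52% over 15. None had an unadjusted p under 0.05. All 7 differences were above 0, from 0.00 (Gbp2) to 0.20 (Gbp3, 95% interval -0.02 to 0.42), with a median of 0.08. The signs of Iigp1 (0.03) and Gbp2 (0.00) reversed under some other settings. Every gene's Etv5 knockdown arrays overlapped those of the control. Between Etv5 and Bcl6b knockdown 0 of 7 genes were called, where 1.49% of all genes were over 16 arrays and 4.5% over 15. Unadjusted p was under 0.05 for 0 genes over 16 arrays and for 1 over 15, Irgm2 (-0.23, adjusted p = 0.147). For these counts too, the share of all genes was not computed.

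**Figure D3:**
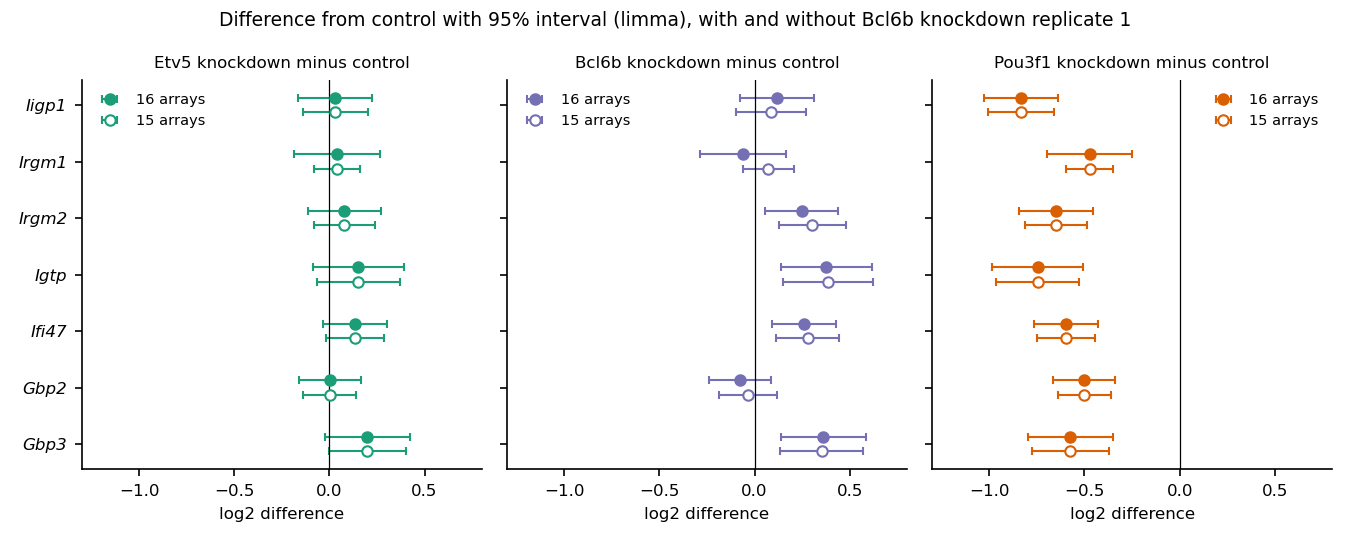
Log2 difference of each gene from control with its 95% interval from limma, over 16 arrays (filled) and over the 15 without Bcl6b knockdown replicate 1 (open). All 7 intervals are below 0 in Pou3f1 knockdown, all include 0 in Etv5 knockdown, and those of Irgm2, Igtp, Ifi47 and Gbp3 are above 0 in Bcl6b knockdown.

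Ordered by group mean, 5 of the 7 genes over 16 arrays rose from Pou3f1 knockdown through control and Etv5 knockdown to Bcl6b knockdown. In Irgm1 and Gbp2 the Bcl6b knockdown mean was between those of Pou3f1 knockdown and control, and without replicate 1 this held for Gbp2 alone. Of the neighbours in that order, only the step from Pou3f1 knockdown to the next group was called, in 6 of 7 genes over 16 arrays and 7 of 7 over 15. Control against Etv5 knockdown, and Etv5 against Bcl6b knockdown, were not called in any of the genes in either fit. The Irgm2 difference between Etv5 and Bcl6b knockdown over 15 arrays had an unadjusted 95% interval of -0.40 to -0.05 and an adjusted p of 0.147.

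Within the control, Etv5 and Pou3f1 knockdown groups, the same arrays tended to hold the lowest and highest values of the genes. The mean over the 7 genes, relative to the control mean on the log2 scale, was -0.75 to -0.46 on the Pou3f1 knockdown arrays, -0.13 to 0.16 on control arrays, -0.05 to 0.20 in Etv5 knockdown and 0.08 to 0.31 in Bcl6b knockdown. Control replicate 4 had the lowest control value in 7 of 7 genes and control replicate 2 the highest in 6. Etv5 knockdown replicate 3 was lowest in 6 genes and replicate 4 highest in 6. In Pou3f1 knockdown, replicate 1 was highest in 6 genes and replicate 3 lowest in 5. The Bcl6b knockdown arrays were more divided: the lowest value was in replicate 4 for 4 genes and in replicate 1 for 3, and the highest was in replicate 2 for 4, replicate 3 for 2 and replicate 1 for 1. Pou3f1 itself read 393, 354, 519 and 393 on Pou3f1 knockdown replicates 1 to 4, where the mean over the 7 genes was -0.46, -0.70, -0.75 and -0.59. Replicate 3, with most Pou3f1 signal left, was lowest in 5 genes, and replicate 2, with least, in 2. A relation between the 2 signals was not tested.

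**Figure D4:**
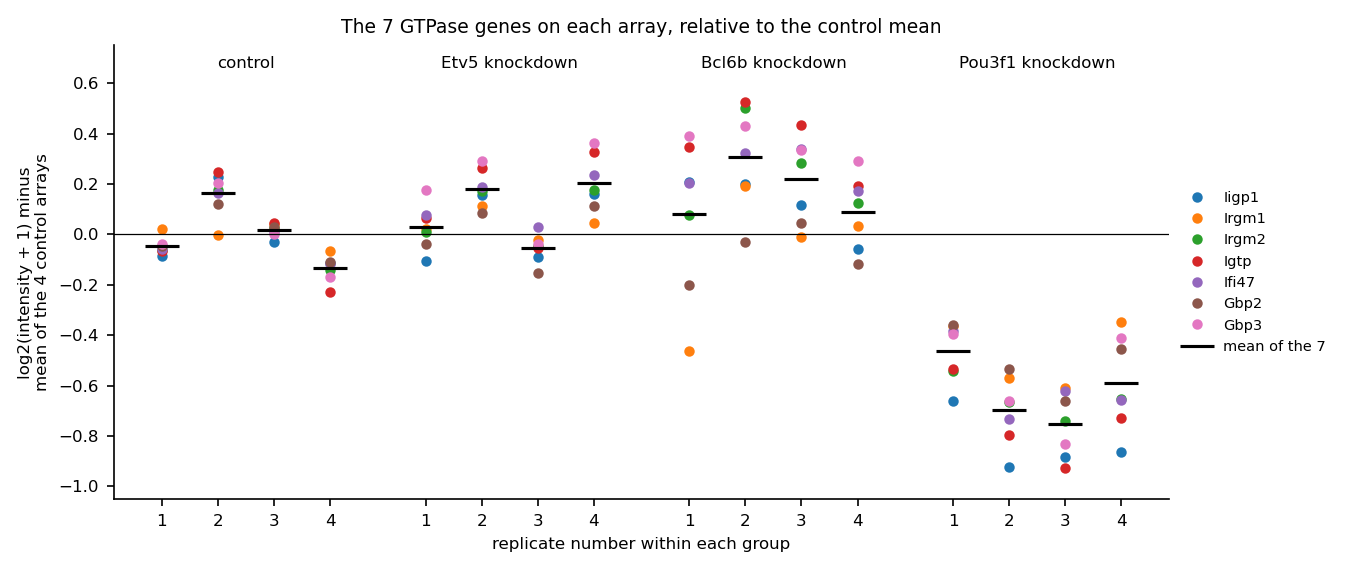
Log2(intensity + 1) of the 7 genes minus their mean over the 4 control arrays, by array, with the mean of the 7 as a black bar. The Pou3f1 knockdown means of -0.75 to -0.46 are below all others, and on Bcl6b knockdown replicate 1 Irgm1 (-0.46) lies far below the other genes.

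Over the 15 arrays, Pearson correlations between pairs of these genes were 0.912 (Irgm2 and Gbp2) to 0.992 (Irgm2 and Igtp), with a median of 0.949 over 21 pairs. Much of this is shared difference between groups. Of deviations from the group means, which share each array's hybridisation and scaling, the correlations were 0.46 (Irgm1 and Ifi47) to 0.94 (Irgm2 and Igtp), with a median of 0.79. Irgm2 and Igtp were the closest pair by both measures. By deviations, Igtp and Gbp2 (0.93), Iigp1 and Ifi47 (0.93), and Gbp2 and Gbp3 (0.93) were nearly as close. The 10 genes most like the mean of the 7 over the 15 arrays were Usp18, Oasl2, Rtp4, Ifi35, Herc6, Ifit1, Rnf213, Xaf1, Rsad2 and Oas1a, with Pearson correlations of 0.990 down to 0.981. The nearest gene to Igtp was Herc6 (0.996), to Ifi47 Rtp4 (0.991) and to Iigp1 Rsad2 (0.984), while Irgm1 and Gbp2 were nearest to Iigp1, and Irgm2 and Gbp3 to Igtp. These correlations are descriptions over 15 arrays of 4 groups.

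A list of 25 further GTPase genes of these and related families was read as well. Most are known as interferon-inducible, but Irgc1 and Irgq are not. Of the 25, 9 had a probe set of their own here and 7 were bright enough to test, while Gbp2b (5.37 to 6.48 on control arrays) and Irgc1 (4.05 to 4.15) were dim in every group. Others, among them Gbp4, Gbp5 and Tgtp1, are not analysed here. In Pou3f1 knockdown 4 of 7 were called lower, with a median of -0.51 against -0.02 over all tested genes: Mx2 (-0.88), the guanylate-binding proteins Gbp7 (-0.51) and Gbp6 (-0.42), and Gm4951 (-0.66). Mx1 (-0.87, adjusted p = 0.112), Gbp8 (-0.21) and Irgq (-0.18) were not called, and 6 of the 7 were called without Bcl6b knockdown replicate 1, all but Gbp8. Of all genes, 1.22% were called lower over 16 arrays and 7.08% over 15.

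In Bcl6b knockdown over 16 arrays, Gbp7 (0.49) and Gbp6 (0.36) were called higher among the 7, where 1.65% of all genes were, with a median of 0.36. Without replicate 1 these 2 were joined by Gbp8 (0.51), Mx1 (0.89) and Gm4951 (0.45), where 4.07% of all genes were called higher. In Etv5 knockdown 0 of the 7 were called over 16 arrays. Over 15, Gbp7 (0.32, adjusted p = 0.0401) was called higher, where 4.58% of all genes were. Gbp7 read 1530 ± 126 (SD, n = 4) in control, 1917 ± 255 in Etv5 knockdown, 2155 ± 274 in Bcl6b knockdown and 1073 ± 84.6 in Pou3f1 knockdown.

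The wider interferon program was read from lists that reach from ligands and receptors to antiviral products. Of ligands, receptors and Janus kinases, 8 of 15 listed were tested and 0 were called in Pou3f1 knockdown, with a median of -0.04. Without Bcl6b knockdown replicate 1, the kinase Jak1 (-0.17) and the type I receptor subunit Ifnar2 (-0.20) were called lower, where 7.08% of all genes were. Among 12 tested STAT and IRF factors and co-activators, Irf7, a transcription factor that amplifies the type I response (-0.65), and Usp18, which restrains receptor signalling (-0.96), were lower in Pou3f1 knockdown, and Irf7 was higher in Bcl6b knockdown (0.60). Over 15 arrays the counts were 6 of 12 lower in Pou3f1 knockdown and 3 higher in Bcl6b knockdown. Of all genes, 1.22% were called lower in Pou3f1 knockdown over 16 arrays and 7.08% over 15. In Bcl6b knockdown 1.65% and 4.07% were called higher. The 4 that joined Irf7 and Usp18 in Pou3f1 knockdown were Stat2 (-0.40) and Irf9 (-0.29), transcription factors of the type I response, Nlrc5, a co-activator of MHC class I genes (-0.44), and Stat3 (-0.15). In Bcl6b knockdown Irf7 was joined by Irf9 (0.32) and Nlrc5 (0.40).

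Of 19 tested antiviral genes, 15 were called lower in Pou3f1 knockdown and 19 without Bcl6b knockdown replicate 1, where 1.22% and 7.08% of all genes were. The median of the 19 was -0.60. The 4 with the smallest p were Oas2 (-0.76) and Oas1a (-1.08), which sense double-stranded RNA, Rsad2 (-1.57), which encodes viperin, and Xaf1 (-0.55). In Bcl6b knockdown 6 of the 19 were called higher, with a median of 0.43, led by Ifit2 (0.52), Oas1a (0.69), Oas2 (0.46) and Ifih1 (0.70), and without replicate 1 the count was 13. Of all genes, 1.65% and 4.07% were called higher in these fits. In Etv5 knockdown 0 of the 19 were called over 16 arrays and 1 over 15, Ifit2 (0.28), where 4.58% of all genes were called higher.

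Of 14 tested interferon-gamma-responsive immune genes, 3 were called lower in Pou3f1 knockdown: Tap2, a peptide transporter subunit (-0.49), Psmb10, an immunoproteasome subunit (-0.34), and the chemokine Cxcl10 (-1.09). Without Bcl6b knockdown replicate 1 there were 8, where 1.22% of all genes were called lower over 16 arrays and 7.08% over 15. The median of the 14 genes, -0.28, was smaller in size than the -0.60 of the GTPase genes, a difference that was not tested. The autophagy conjugation genes, whose products help load these GTPases on vacuoles, were tested in 16 of 16 cases and 0 were called in any knockdown against control over 16 arrays. Over 15 arrays Gabarapl1 (-0.21) was called lower in Pou3f1 knockdown and Becn1 (0.12) higher in Bcl6b knockdown. Each was 1 of 16, where 7.08% and 4.07% of all genes were called so, which is near those shares. The comparisons with control share the control arrays, so their values are given side by side only. These lists were drawn up with earlier results of these data known and are no independent evidence of direction.

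**Figure D5:**
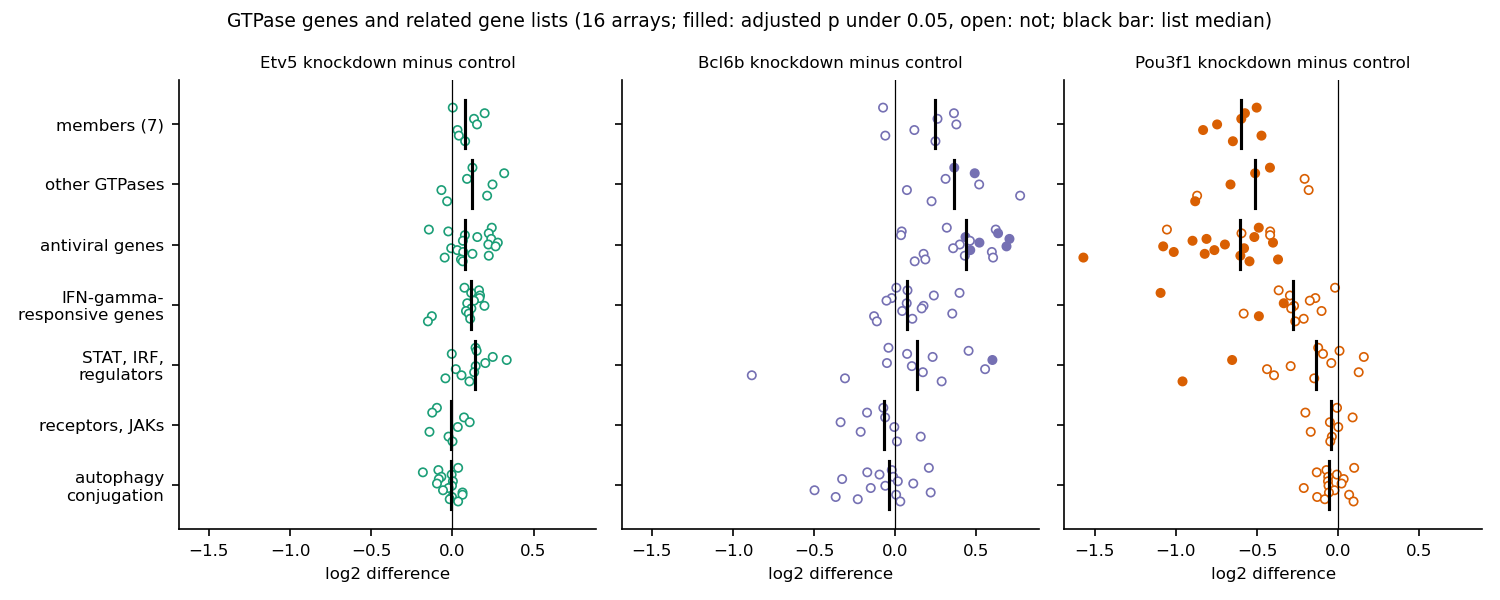
Log2 difference from control over 16 arrays for each tested gene of the 7 GTPases and 6 related lists, filled where the adjusted p was under 0.05, with the list median as a black bar. In Pou3f1 knockdown the medians of the GTPases (-0.60), other GTPases (-0.51) and antiviral genes (-0.60) are shifted, while those of receptors and Janus kinases (-0.04) and autophagy genes (-0.06) are near 0.

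Markers of cells that could carry an interferon response were read beside these values. Endothelial markers (2 tested) and Sertoli and Leydig markers (5 tested) were read too and are not described here. Of 17 measured macrophage and leukocyte markers 10 were tested. In Pou3f1 knockdown 0 were called in either fit, where 2.25% and 11.4% of all genes were. The summed intensity of these markers was 1404 to 1649 there and 1378 to 1694 in control. In Bcl6b knockdown 0 were called in either fit, where 3.21% and 10.9% of all genes were. The sums there were 1395 to 2135 over 4 arrays and 1395 to 1507 without replicate 1. Of 7 defining markers, Ptprc (61.5 to 103), Cd68 (26.0 to 59.8), Cd14 (132 to 188) and Tyrobp (150 to 364) were above the array median on all 16 arrays and Csf1r (15.1 to 18.9) on 14, while Adgre1 (at most 7.59) and Itgam (at most 5.22) were never above it. Of 16 tested fibroblast markers, 1 was called higher over 16 arrays, Vim, by 0.35 in Pou3f1, 0.29 in Bcl6b and 0.33 in Etv5 knockdown. Of all genes, 1.03%, 1.65% and 1.31% were called higher in these knockdowns. Without Bcl6b knockdown replicate 1 there were 2 higher and 3 lower in Pou3f1 knockdown, 2 higher in Bcl6b knockdown (Vim and Pdgfrb) and 4 higher in Etv5 knockdown. The shares of all genes were 4.3% higher and 7.08% lower in Pou3f1, 4.07% higher in Bcl6b and 4.58% higher in Etv5 knockdown. The summed intensity of the fibroblast markers was 200928 to 202621 in control, 202496 to 208038 in Pou3f1 knockdown and 207972 to 219289 in Etv5 knockdown. In Bcl6b knockdown it was 202575 to 210970, and without replicate 1 it was 206397 to 210970. The latter range and that of Etv5 knockdown both lay wholly above control. The part of other cell types in the GTPase values was not tested. Of 16 tested germ cell and spermatogonial markers 1 was called higher in Pou3f1 knockdown over 16 arrays, Ret (0.38), and 2 over 15. Of all genes, 1.03% and 4.3% were called higher. The summed intensity of these markers was 41809 to 44880 in Pou3f1 knockdown and 41758 to 42615 in control. It was 37774 to 43099 in Bcl6b knockdown and 38413 to 40825 in Etv5 knockdown, where the target Etv5 is itself on the list.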

How the data were processed

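Biotin-labelled material came from cDNA primed with a poly(T) oligomer, per the labels' protocols. The deposited file gives 1 linear intensity for each probe set and array, as the authors had summarised it. Partek 6.4, GCRMA, MAS5 and Affymetrix Expression Console 1.1 appear in the submitters' processing notes without a stated role, and how arrays were normalized is, in the sources used here, not stated. The platform annotation used here paired 34945 of 45037 probe sets (controls left out) with a single gene, 932 with several and 9160 with none. The brightest probe set by mean log2 value stood for its gene, which gave 18193 genes. The 11145 genes above the array median on at least 4 arrays were tested.

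On the log2(intensity + 1) scale used, changes of dim genes are understated. A single limma 3.58.1 fit (R 4.3.3; lmFit, then eBayes with an intensity trend; two-sided) covered all groups, p-values were adjusted after Benjamini and Hochberg over every tested gene, and an adjusted p under 0.05 made a call. Another fit took 22836 single probe sets. The steps were tested on simulated data. Named were all members and their probe sets, each measured gene of the other GTPases, and from each further list up to 4 called genes with the smallest p. Genes called only over 15 arrays were added after their values were seen. The members and lists were chosen with earlier results of these data known. Other settings were centring on array medians, quantile normalization, 16 as pseudocount, 2 other filters (none, or a mean log2 of 5), averaging a gene's probe sets, array weights, eBayes without trend, fits of the compared groups alone, the replicate number as a block, and leaving out each array. Plots used matplotlib 3.10.9 with Python 3.11.15.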

Additional observations from a re-analysis of the deposited data

How the results depend on the processing

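Of 1092 values of single genes recomputed under these alternatives, 1053 kept their sign and side of the threshold, 16 changed sign, 13 lost and 10 gained a call. In many of them the sign could not change, so the first count is no measure of stability of sign. Other filters, no trend, the compared groups alone, the block, and leaving out an array of a group not compared keep the log2 difference. They can move only its adjusted p. In Bcl6b knockdown against control the count of called genes was 0 with all arrays and 4 with array weights, and 0 to 4 when single arrays were left out. The 4 came without Bcl6b knockdown replicate 1, where probe sets went from 0 to 4. Leaving out single arrays gave 6 to 7 genes in Pou3f1 knockdown against control and against Etv5 knockdown, and 6 to 7 against Bcl6b knockdown. The sign changes were in Iigp1, Gbp2 and Irgm1. In Etv5 knockdown against control Iigp1 was -0.0028 as the mean over probe sets, -0.0084 with array weights and -0.012 to 0.11 with single arrays left out (below 0 on leaving out control replicate 4, or replicate 2 or 4 of Etv5 knockdown). Gbp2 was -0.0044 with median centring, -0.016 as the mean over probe sets, -0.0098 with array weights and -0.035 to 0.054 with single arrays left out (below 0 on leaving out replicate 1 or 4 of the control, or 2 or 4 of Etv5 knockdown). Irgm1 in Bcl6b knockdown against control was 0.040 with array weights and -0.15 to 0.072 with single arrays left out, above 0 without replicate 1 alone. In Etv5 against Bcl6b knockdown it was -0.011 with array weights and -0.033 to 0.19 with single arrays left out, below 0 without Bcl6b knockdown replicate 1 alone. The cause was not tested. Irgm1 lost its call in Pou3f1 against Etv5 knockdown without Etv5 knockdown replicate 1, 2 or 4 or Pou3f1 knockdown replicate 2 or 3 (adjusted p 0.0646 to 0.0822), and Gbp2 lost its call in Pou3f1 against Bcl6b knockdown in a fit of those groups alone (adjusted p = 0.0712). Median centring moved the split of all called genes in Bcl6b knockdown against control from 184 higher and 174 lower to 126 and 617, and in Pou3f1 against Bcl6b knockdown from 82 and 161 to 215 and 116.

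Same-numbered arrays did not deviate together (correlations of -0.26 to 0.20 over 24 pairs, 5 of them over 0.1, with 6 of 16 arrays closest to their own number), so the number is not taken as a pairing. With the replicate number as a block, Irgm1 in Pou3f1 knockdown against control had an adjusted p of 0.0519, and no other call of these genes changed.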

Other observations

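Beyond the GTPases, the response element (GAAA, any 2 bases, GAAA) was read in the promoters of all tested genes with a RefSeq window. In Pou3f1 knockdown against control over 16 arrays, 16 of the 319 genes with the element, the 7 GTPases left out, were called lower (5.02%), and 82 of 8761 without it (0.936%). Over the 15 arrays without Bcl6b knockdown replicate 1 the shares were 12.9% and 6.88%. The median log2 difference of genes with the element was -0.04 and of those without it -0.03, so that most genes with the element had values near those of other genes. In Bcl6b knockdown over 16 arrays 7 of the 319 were called higher (2.19%), and 147 of 8761 without the element (1.68%). Over the 15 arrays these were 28 of 319 (8.78%) and 336 of 8761 (3.84%). Among the list of further GTPase genes, 6 of 7 windows held the response element and 5 a gamma-activated site.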
